A study of Mus musculus with 10 samples.

Results

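The early gliogenesis genes described here were *Sox9*, *Nfia*, *Nfib*, *Slc1a3*, *Fabp7*, *Fgfr3*, *Olig1*, *Olig2* and *Pdgfra*, 9 of the 54146 genes in the deposited count table. They were chosen by name as known genes of glial specification, radial glia and oligodendrocyte precursors, and each was found by its Ensembl identifier. The study sequenced poly(A) RNA from the lumbar spinal cord of 10 single mouse embryos at E12.5, taken with the dorsal root ganglia attached. Litter 1 gave 3 controls and 3 *Dot1l*-cKO embryos, and litter 2 gave 2 of each. The *Dot1l*-cKO embryos were Wnt1cre2/+ with Dot1lfl/fl, and their Cre transgene, B6.Cg-E2f1Tg(Wnt1-cre)2Sor/J, is driven by the *Wnt1* promoter. The study proposes that the loss falls mostly on dorsal cells of the lumbar cord but on ventral cells as well. The controls carried no Cre transgene and were Dot1lfl/fl in litter 1 and Dot1lfl/+ in litter 2. An effect of the transgene itself therefore cannot be told apart from the loss of *Dot1l*, and among controls the litter cannot be told apart from the number of floxed alleles.

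DOT1L is the enzyme that methylates lysine 79 of histone H3 (H3K79), a mark of transcribed genes. In the spinal cord the progenitors lining the ventricle first make neurons and then switch to glia. SOX9 starts this switch and acts with NFIA and NFIB, radial glia carry FABP7, the glutamate transporter encoded by *Slc1a3* and FGFR3, and oligodendrocyte precursors arise largely from the ventral pMN domain, which expresses OLIG2 and OLIG1, before they take up PDGFRA. Several of these genes are not specific to the neural tube, since *Sox9* is also transcribed in cartilage, *Pdgfra* in mesenchyme and meninges, and *Fabp7* in the glia of dorsal root ganglia.

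Total counts per embryo lay between 40949585 and 68928443. Levels are given as CPM, counts normalised to the TMM-adjusted library size of each embryo. *Dot1l* itself, counted over the whole gene, was not lower in *Dot1l*-cKO embryos (0.17 on the log2 scale, standard error 0.06, edgeR adjusted p = 0.128), which leaves the genotype unchecked, and the groups are named by their labels. *Xist*, transcribed from the inactive X chromosome of females, lay at 6.00 and 6.79 CPM in the *Dot1l*-cKO embryos of litter 2 and between 499 and 890 CPM in the other 8 embryos, so in litter 2 the genotype cannot be told apart from sex. In this whole tissue fewer cells of a type and less RNA per cell cannot be told apart.

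The 9 members include 2 pairs of close paralogs, OLIG1 and OLIG2 and NFIA and NFIB, whose transcripts could share reads. The most similar coding windows of 75 bases, the length of a read, are shown to give the limit of this, taken from the GRCm38 genome with the GENCODE gene models and with capitals marking the bases that differ within the pair. The *Olig1* window lies in exon 1 at chr16:91270148-91270222 on the plus strand, and the *Olig2* window in exon 2 at chr16:91226713-91226787 on the plus strand.
Olig1: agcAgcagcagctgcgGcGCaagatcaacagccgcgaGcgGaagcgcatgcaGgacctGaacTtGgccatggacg
Olig2: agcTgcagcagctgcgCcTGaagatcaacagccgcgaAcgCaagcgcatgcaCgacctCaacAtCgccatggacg
These windows were identical at 65 of 75 bases (86.7%). The *Nfia* window lies in exon 2 at chr4:97783131-97783205 on the plus strand, and the *Nfib* window in exon 2 at chr4:82498646-82498720 on the minus strand.
Nfia: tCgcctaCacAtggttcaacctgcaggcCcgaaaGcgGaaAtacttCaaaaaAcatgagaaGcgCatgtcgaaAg
Nfib: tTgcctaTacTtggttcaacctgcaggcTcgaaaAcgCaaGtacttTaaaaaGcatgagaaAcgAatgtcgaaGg
These windows were identical at 63 of 75 bases (84.0%). In both pairs the longest run of coding bases shared without a mismatch was 17 bases, so no full read matches both coding sequences exactly. Shared exonic sequence with genes annotated on the opposite strand covered 13.94% of *Fgfr3*, 7.26% of *Olig1* and 6.5% of *Pdgfra* (in *Pdgfra* including a microRNA gene on the same strand), and since the sources do not give the counter's strand option, reads of these partners cannot be told apart from the members' own.

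The first question was whether the members differed between *Dot1l*-cKO and control embryos once the litter was taken into account. *Nfia* fell, and it was the only one of the 9 members to pass the test, with a log2 fold change of -0.24 (standard error 0.05, edgeR adjusted p = 0.0324). Among all 18901 genes tested, 602 passed (3.19%), of which 376 were higher (1.99%) and 226 lower (1.2%). *Olig1* (0.61) and *Olig2* (0.35) had larger log2 fold changes, both positive, and did not pass. The log2 fold changes of the other 6 members lay between -0.09 and 0.06, against a median of -0.01 over all genes. With *Xist* as a covariate these 6 lay between -0.29 in *Pdgfra* and 0.13 in *Slc1a3*, with *Nfib* at -0.19 and *Fgfr3* at -0.03, and none passed (edgeR adjusted p from 0.349 to 0.924). Only the *Dot1l*-cKO embryos of litter 2 had low *Xist*, so fits with this covariate take their genotype effect mainly from litter 1. They cannot serve as a separate check for sex.

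**Figure D1:**
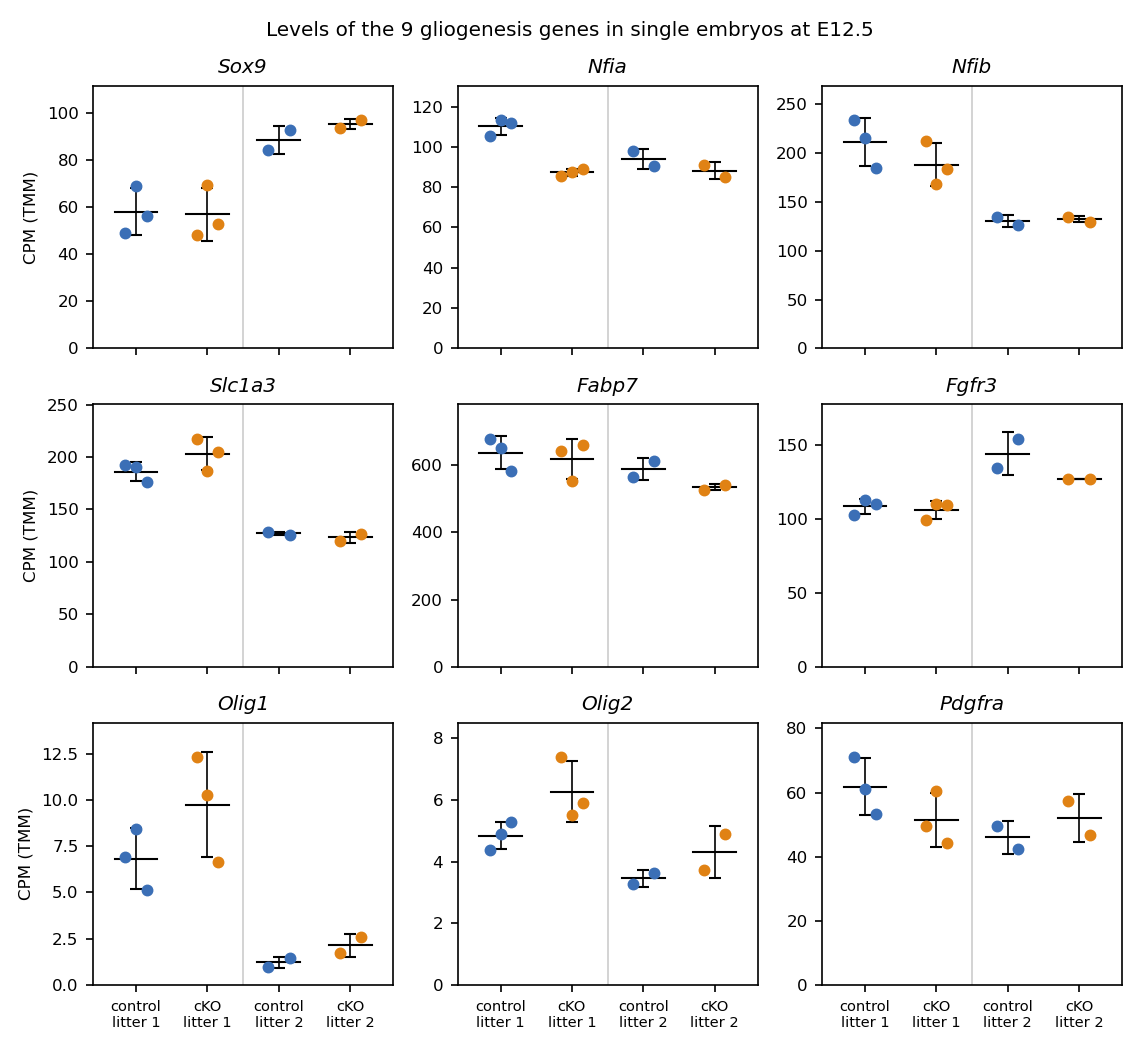
Level of each member in CPM (vertical axis, linear from 0) in single embryos, with controls in blue and Dot1l-cKO in orange, by litter. Horizontal bars are means and error bars are SD over 3 embryos in litter 1 and 2 in litter 2. Nfia is lower in all 3 Dot1l-cKO embryos of litter 1, and Olig1 lies at 5.14 to 12.3 CPM in litter 1 and at 0.996 to 2.58 CPM in litter 2.

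Among the genes of the gliogenic switch, *Nfia* (ENSMUSG00000028565, GRCm38 chromosome 4 from 97772734 to 98118874), the nuclear factor that follows SOX9, had levels of 105, 113 and 112 CPM in the controls of litter 1 and 85.6, 87.4 and 88.9 CPM in the *Dot1l*-cKO embryos of the same litter. In litter 2 the controls had 97.7 and 90.6 CPM and the *Dot1l*-cKO embryos 91.2 and 85.1 CPM. The groups were thus apart in litter 1, as for 9.51% of all genes in this direction and 18.7% in either, and overlapped in litter 2. Over both litters the mean was 104 ± 9.61 CPM (SD, n = 5) in controls and 87.7 ± 2.48 CPM (SD, n = 5) in *Dot1l*-cKO embryos, with a fold of 0.847 fitted by edgeR with the litter in the model. Within litter 1 the log2 fold change was -0.33 (standard error 0.06, edgeR adjusted p = 0.0595), and within litter 2 it was -0.09 (standard error 0.07, adjusted p = 0.511). The difference between these effects did not pass (interaction 0.24, standard error 0.09, unadjusted p = 0.0164, adjusted p = 0.510). With 1 embryo left out the effect ranged from -0.37 to -0.32 in litter 1 and from -0.14 to -0.028 in litter 2.

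The *Nfia* call depended on the fit. It was lost when control embryo 1, 2 or 3 or *Dot1l*-cKO embryo 1 or 2 of litter 1, control embryo 1 of litter 2 or *Dot1l*-cKO embryo 2 of litter 2 was left out (range of log2 fold changes over all 10 such fits -0.28 to -0.22, edgeR adjusted p from 0.0258 to 0.0941). It was also lost without the litter in the model (-0.24, adjusted p = 0.334) and with each embryo corrected for GC content (-0.20, adjusted p = 0.0839), and it was kept with *Xist* as a covariate (-0.35, adjusted p = 0.0342), with DESeq2 (-0.24, adjusted p = 0.00250) and without the expression filter (-0.23, adjusted p = 0.000819).

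*Nfib* (ENSMUSG00000008575, chromosome 4 from 82290173 to 82705750), the paralog of *Nfia*, had 234, 216 and 185 CPM in the controls of litter 1 and 212, 169 and 184 CPM in its *Dot1l*-cKO embryos. In litter 2 the controls had 135 and 126 CPM and the *Dot1l*-cKO embryos 135 and 130 CPM. The genotypes overlapped in both litters, and the log2 fold change was -0.09 (standard error 0.07, edgeR adjusted p = 0.490). The log2 ratio of *Nfib* to *Nfia* was higher by 0.15 in *Dot1l*-cKO embryos (exact permutation within litters, two-sided, p = 0.167, 0.233 after adjustment over 2 ratios, smallest p possible 0.0167). With 1 embryo left out this difference ranged from 0.086 to 0.20.

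*Sox9* (ENSMUSG00000000567, chromosome 11 from 112782224 to 112787760), the transcription factor that starts glial specification, had 49.1, 68.9 and 56.3 CPM in the controls and 48.2, 69.5 and 53.0 CPM in the *Dot1l*-cKO embryos of litter 1. In litter 2 it had 84.4 and 92.7 CPM in controls and 93.7 and 97.0 CPM in *Dot1l*-cKO embryos. The genotypes spanned the same range in litter 1, and the log2 fold change over both litters was 0.03 (standard error 0.10, edgeR adjusted p = 0.909). Its 3 values in each genotype of litter 1 spread more widely than the difference between genotypes in either litter.

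None of the radial glia members passed the test between genotypes. *Slc1a3* (ENSMUSG00000005360, chromosome 15 from 8634124 to 8710764), which encodes the glutamate transporter GLAST, had 192, 190 and 176 CPM in the controls and 218, 186 and 205 CPM in the *Dot1l*-cKO embryos of litter 1. In litter 2 the controls had 128 and 126 CPM and the *Dot1l*-cKO embryos 120 and 127 CPM. The groups overlapped in both litters (log2 fold change 0.06, standard error 0.05, edgeR adjusted p = 0.548).

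*Fabp7* (ENSMUSG00000019874, chromosome 10 from 57784881 to 57788450), the brain lipid binding protein of radial glia, had 680, 652 and 583 CPM in the controls and 644, 553 and 660 CPM in the *Dot1l*-cKO embryos of litter 1, where the groups overlapped. In litter 2 it had 566 and 612 CPM in controls and 528 and 541 CPM in *Dot1l*-cKO embryos, where they did not. *Fgfr3* (ENSMUSG00000054252, chromosome 5 from 33721674 to 33737068), an FGF receptor of progenitors, followed the same pattern, with 103, 113 and 110 CPM in the controls and 99.3, 110 and 109 CPM in the *Dot1l*-cKO embryos of litter 1. In litter 2 *Fgfr3* had 134 and 154 CPM in controls and 127 and 127 CPM in *Dot1l*-cKO embryos. Over both litters the log2 fold change was -0.08 (standard error 0.06, edgeR adjusted p = 0.445) for *Fabp7* and -0.09 (standard error 0.05, adjusted p = 0.331) for *Fgfr3*. With 2 against 2 embryos, 52.4% of all genes had groups that did not overlap in litter 2 (24.4% higher and 28% lower in the *Dot1l*-cKO), so these separations are not particular to the members.

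The transcription factors of the oligodendrocyte lineage had the highest positive log2 fold changes of the members. *Olig1* (ENSMUSG00000046160, chromosome 16 from 91269772 to 91271933), needed later for oligodendrocyte maturation, had 6.90, 8.45 and 5.14 CPM in the controls and 12.3, 10.3 and 6.67 CPM in the *Dot1l*-cKO embryos of litter 1. In litter 2 it had 0.996 and 1.44 CPM in controls, from 50 and 57 reads, and 1.71 and 2.58 CPM in *Dot1l*-cKO embryos, from 97 and 155 reads. The genotypes overlapped in litter 1 and were apart in litter 2, as were those of *Sox9*. The log2 fold change was 0.61 over both litters (standard error 0.19, edgeR adjusted p = 0.0887), 0.52 in litter 1 (adjusted p = 0.347) and 0.84 in litter 2 (adjusted p = 0.135). With 1 embryo left out it ranged from 0.32 to 0.74 in litter 1 and from 0.51 to 1.13 in litter 2. *Olig1* passed in the edgeR fit on unfiltered genes (0.62, adjusted p = 3.9e-05), in DESeq2 (0.62, adjusted p = 0.0192) and when *Dot1l*-cKO embryo 3 of litter 1 was left out (0.77, adjusted p = 0.0177). It did not pass with GC correction (0.43, adjusted p = 0.164), with *Xist* as a covariate (0.46, adjusted p = 0.420) or without the litter in the model (0.55, adjusted p = 0.796).

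*Olig2* (ENSMUSG00000039830, chromosome 16 from 91225457 to 91228677), the factor that defines the pMN domain, had 4.37, 4.89 and 5.27 CPM in the controls and 7.39, 5.50 and 5.91 CPM in the *Dot1l*-cKO embryos of litter 1. In litter 2 it had 3.27 and 3.64 CPM in controls and 3.72 and 4.91 CPM in *Dot1l*-cKO embryos. *Olig2* was the only member whose genotypes did not overlap in the same direction in both litters, a pattern that 8.1% of all genes showed, 3.89% with the *Dot1l*-cKO higher (in litter 1 alone 9.19% were higher without overlap). No member separated all 5 controls from all 5 *Dot1l*-cKO embryos, against 1.92% of all genes. The log2 fold change was 0.35 (standard error 0.12, edgeR adjusted p = 0.102), with 0.38 in litter 1 (adjusted p = 0.274) and 0.33 in litter 2 (adjusted p = 0.364). The log2 ratio of *Olig1* to *Olig2* differed by 0.28 between the genotypes (exact permutation within litters, two-sided, p = 0.233, 0.233 after adjustment over 2 ratios). With 1 embryo left out this ratio ranged from 0.15 to 0.41 (p from 0.0833 to 0.483), its lowest without control embryo 3 and its highest without *Dot1l*-cKO embryo 3 of litter 1, and the litter 2 value of *Olig2* from 0.12 without *Dot1l*-cKO embryo 2 to 0.51 without *Dot1l*-cKO embryo 1.

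*Pdgfra* (ENSMUSG00000029231, chromosome 5 from 75152292 to 75198215), the PDGF receptor of oligodendrocyte precursors, had 71.1, 61.1 and 53.4 CPM in the controls and 49.5, 60.5 and 44.3 CPM in the *Dot1l*-cKO embryos of litter 1. In litter 2 the controls had 49.7 and 42.3 CPM and the *Dot1l*-cKO embryos 57.3 and 46.7 CPM. The groups overlapped in both litters, and the log2 fold change was -0.26 in litter 1 and 0.18 in litter 2 (interaction 0.44, standard error 0.20, unadjusted p = 0.0461, edgeR adjusted p = 0.591). With 1 embryo left out it ranged from -0.40 to -0.16 in litter 1 and from 0.027 to 0.33 in litter 2. The 9 markers of mesenchyme and meninges differed in the same directions in their summed levels, which overlapped in litter 1 and not in litter 2, with 1706 to 2241 CPM in controls and 1177 to 1811 CPM in *Dot1l*-cKO embryos of litter 1, and 1149 to 1328 CPM and 1386 to 1580 CPM in litter 2. Over both litters 0 of these markers passed edgeR's test between genotypes (1 at an unadjusted p below 0.05, against 22.2% of all genes), with 2 positive and 7 negative. Within litter 1 all 9 were negative and 0 passed, and within litter 2 fitted alone, where genotype and sex cannot be told apart, 7 were positive and *Col1a1* (0.71, adjusted p = 0.00107) and *Postn* (0.40, adjusted p = 0.0111), genes of the extracellular matrix, rose. In litter 2 in the interaction fit 0 of the 9 markers passed (*Col1a1* adjusted p = 0.198, *Postn* adjusted p = 0.117). Their part in the *Pdgfra* values was not tested.

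**Figure D2:**
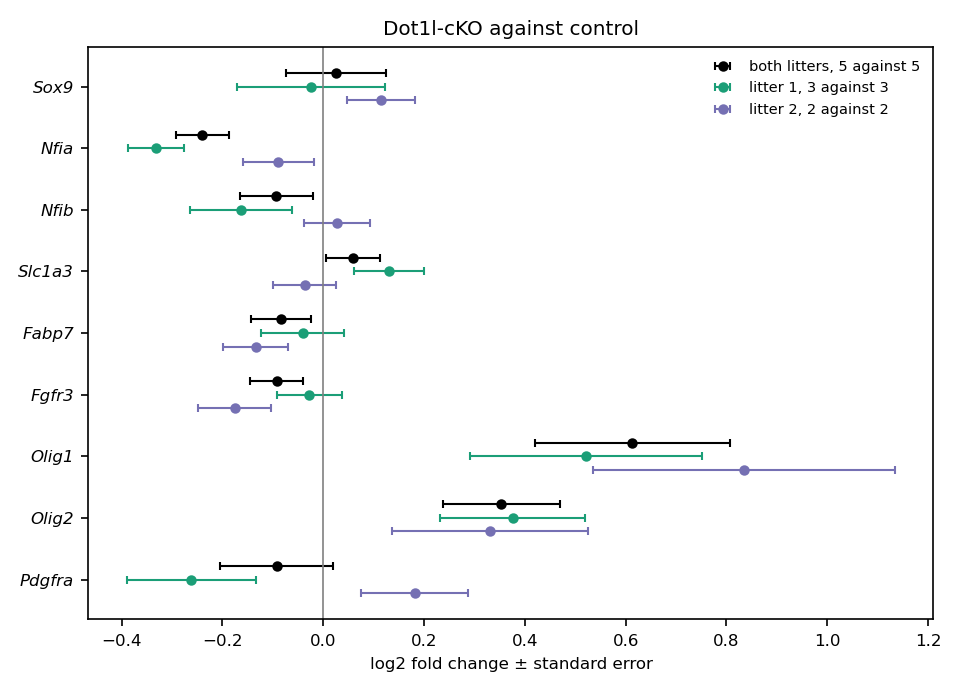
Log2 fold change of Dot1l-cKO against control for each member (horizontal axis), over both litters in black, in litter 1 in green and in litter 2 in purple. Error bars are standard errors from the edgeR fits. Nfia lies at -0.24 over both litters, Olig1 at 0.61 and Olig2 at 0.35, and Pdgfra lies on opposite sides of 0 in the 2 litters.

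Within single litters no member passed the test between genotypes. In litter 1, 12 genes passed in all (0.0623%), and in litter 2, 964 (5.13%). These counts depended on the fit, since the contrasts taken from the interaction fit over all 10 embryos called 125 genes in litter 1 and 36 in litter 2. At an unadjusted p below 0.05 edgeR gave 3 members in litter 1, *Nfia*, *Olig1* and *Olig2*, and 2 in litter 2, *Olig1* and *Fgfr3*, against 14.1% of all genes in litter 1 and 20.7% in litter 2. Other fits added calls in litter 1, where *Nfia* passed with DESeq2 (-0.33, adjusted p = 0.000249), with the contrast taken from the fit with an interaction (-0.34, adjusted p = 0.0225) and without *Dot1l*-cKO embryo 2 (-0.34, adjusted p = 0.0338). In litter 2 *Fgfr3* passed without control embryo 1 (-0.27, adjusted p = 0.0464). The interaction of litter and genotype was passed by 2 genes (0.0106%) and by no member with edgeR, and *Nfia* and *Pdgfra* were the 2 members with an unadjusted p below 0.05, as 8.43% of all genes had. DESeq2 called 94 genes for the interaction and again no member.

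The next comparison was between the litters. Over both genotypes, 7 of the 9 members passed between litter 2 and litter 1, with *Sox9* and *Fgfr3* higher in litter 2 and *Olig1*, *Slc1a3*, *Nfib*, *Olig2* and *Fabp7* lower. Differences between litters were common in these embryos, with 36.4% of all genes passing, 17.6% higher and 18.7% lower in litter 2. Each litter had its own control genotype at *Dot1l*, and the *Dot1l*-cKO embryos of litter 2 differed from those of litter 1 in *Xist* as well.

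*Olig1* had the largest litter difference of the members, with 5.14 to 12.3 CPM in the 6 embryos of litter 1 and 0.996 to 2.58 CPM in the 4 embryos of litter 2 (log2 difference -2.32, standard error 0.21, a fold of 0.201, edgeR adjusted p = 3.7e-06). *Slc1a3* was lower by the next largest amount (-0.63, standard error 0.06, adjusted p = 2.7e-06), with 176 to 218 CPM in litter 1 and 120 to 128 CPM in litter 2. *Nfib* was lower by a similar amount (-0.60, standard error 0.08, adjusted p = 3.9e-05), with 169 to 234 CPM and 126 to 135 CPM. For all 3 genes no embryo of litter 2 reached the lowest embryo of litter 1, a pattern found in 12% of all genes (24.3% in either direction).

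In the opposite direction, *Sox9* was higher in litter 2 (log2 difference 0.68, standard error 0.10, edgeR adjusted p = 0.000155), with 84.4 to 97.0 CPM against 48.2 to 69.5 CPM in litter 1. *Fgfr3* was higher too (0.33, standard error 0.05, adjusted p = 0.000313), with 127 to 154 CPM against 99.3 to 113 CPM. Neither gene's litters overlapped, as for 12.3% of all genes in this direction.

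*Olig2* was lower in litter 2 (-0.51, standard error 0.12, edgeR adjusted p = 0.00424), although the highest *Dot1l*-cKO embryo of litter 2 exceeded 2 controls of litter 1. *Fabp7* was just past the threshold (-0.16, standard error 0.06, adjusted p = 0.0494). Its call was lost with control embryo 1 or 2 or *Dot1l*-cKO embryo 1 or 3 of litter 1, control embryo 1 of litter 2 or either *Dot1l*-cKO embryo of litter 2 left out (adjusted p up to 0.148), and with DESeq2's size factors (0.0565) or an expression filter on the full design (0.0516). *Nfia* (-0.10, adjusted p = 0.147) and *Pdgfra* (-0.20, adjusted p = 0.195) did not pass, although *Pdgfra* did without the expression filter (-0.21, adjusted p = 0.00456).

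**Figure D3:**
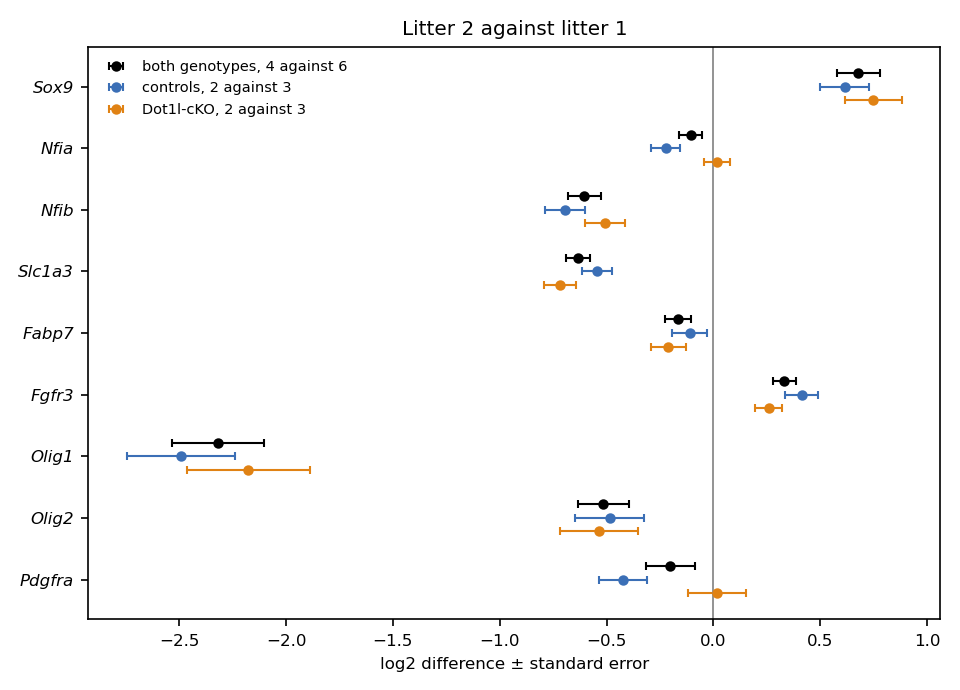
Log2 difference of litter 2 against litter 1 for each member (horizontal axis), over all 10 embryos in black, in controls alone in blue and in Dot1l-cKO embryos alone in orange. Error bars are standard errors from the edgeR fits. Olig1 lies far to the left at -2.32 over all embryos, Sox9 to the right at 0.68, and Nfia and Pdgfra are below 0 in controls and near 0 in Dot1l-cKO embryos.

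Taken within each genotype, the litter difference of 5 members passed in controls and in *Dot1l*-cKO embryos alike, where 24.5% and 18.6% of all genes passed. *Olig1* had -2.49 in controls and -2.18 in *Dot1l*-cKO embryos, *Nfib* -0.69 and -0.51, *Slc1a3* -0.55 and -0.72, *Sox9* 0.61 and 0.75, and *Fgfr3* 0.41 and 0.26. *Olig2* had similar values in the genotypes, -0.49 in controls (edgeR adjusted p = 0.0484) and -0.53 in *Dot1l*-cKO embryos (adjusted p = 0.0755). *Fabp7* passed in neither (-0.11, adjusted p = 0.362, and -0.21, adjusted p = 0.109). *Nfia* was lower in litter 2 among controls (-0.22, adjusted p = 0.0334) and had 0.02 in *Dot1l*-cKO embryos (adjusted p = 0.886), and *Pdgfra* behaved likewise (-0.42, adjusted p = 0.0188, and 0.02, adjusted p = 0.945). For neither did the interaction pass.

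Levels of different genes were compared per kilobase of exon. Over all 10 embryos *Fabp7* stood highest at 482 ± 44.0 CPM per kilobase (SD, n = 10), above every other member in every embryo. *Slc1a3* (19.5 ± 4.40), *Sox9* (17.2 ± 4.69), *Fgfr3* (16.6 ± 2.34), *Nfib* (11.5 ± 2.67) and *Nfia* (8.79 ± 0.99) followed, each overlapping its neighbour in this order. *Pdgfra* (5.35 ± 0.89) lay below *Nfia* without overlap, and *Olig1* (2.61 ± 1.83) and *Olig2* (1.93 ± 0.49) were lowest by mean and overlapped. *Olig1* also overlapped *Pdgfra*, since in *Dot1l*-cKO embryo 1 of litter 1 it stood at 5.70 CPM per kilobase and *Pdgfra* at 4.94.

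The order of some members changed between the litters. In litter 1 *Slc1a3* lay at 20.6 to 25.5 CPM per kilobase and *Sox9* at 11.7 to 16.8, and in litter 2 *Sox9* lay at 20.4 to 23.5 and *Slc1a3* at 14.7 ± 0.43 (SD, n = 4), so the genes exchanged places without overlap in either litter. *Olig1* lay at 2.38 to 5.70 CPM per kilobase and *Olig2* at 1.73 to 2.92 in litter 1, where they overlapped. In litter 2 *Olig1*, at 0.461 to 1.19, was below *Olig2*, at 1.29 to 1.94, in every embryo. *Nfib* was above *Nfia* in litter 1 (11.3 to 15.6 against 7.86 to 10.4) and overlapped it in litter 2 (8.43 to 9.00 against 7.82 to 8.97).

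**Figure D4:**
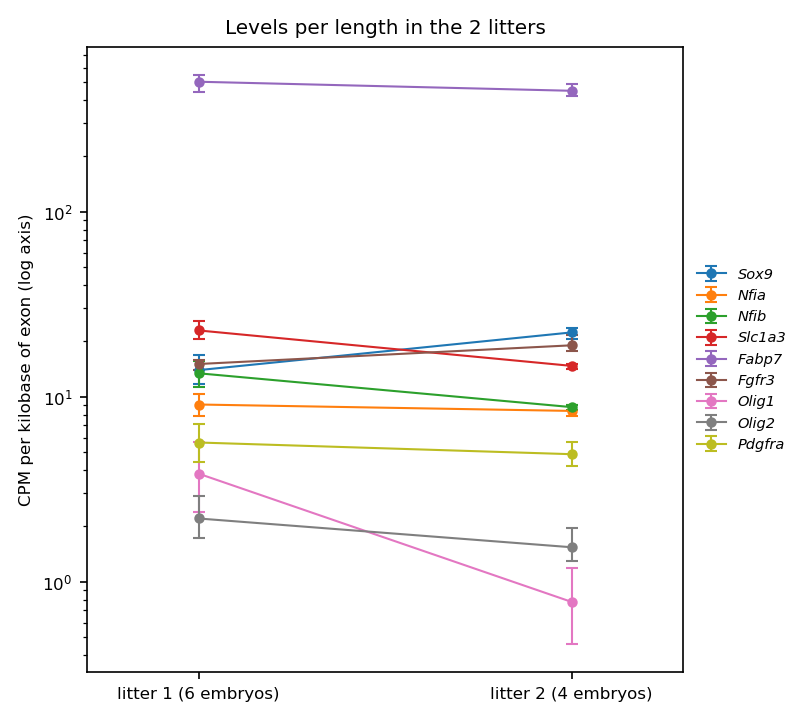
Level of each member per kilobase of exon (vertical log axis, CPM per kilobase) in litter 1 (6 embryos) and litter 2 (4 embryos). Points are means and bars reach from the lowest to the highest embryo. The lines of Slc1a3 and Sox9 cross, and Olig1 passes from above Olig2 to below it.

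The genes with profiles nearest to the most variable members were found by the root mean square difference of log2 CPM over the 10 embryos, with each gene centred on its own mean, among 13492 genes. For *Olig1* they included *Aldoc*, an aldolase of astrocytes (0.31), and *Htr7*, a serotonin receptor (0.40). *Aldoc* went from 34.4 to 88.3 CPM in litter 1 to 9.23 to 16.2 CPM in litter 2. For *Sox9* the nearest were *Insm1*, a zinc finger factor of neuronal differentiation (0.09), *Pola2*, a subunit of DNA polymerase alpha (0.09), and *Hes6*, a neurogenic bHLH factor (0.10). *Insm1* lay at 26.1 to 42.3 CPM in litter 1 and 47.7 to 55.0 CPM in litter 2. For *Olig2* they were *Fbxo2* (0.09), *Diras1* (0.10) and *5330417C22Rik* (0.10).

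Of 12 other gliogenic regulators, 2 rose, 0 fell and 10 did not pass between the genotypes, with a median log2 fold change of 0.18 against -0.01 over all genes. *Nfix*, another gene of the NFI family, rose (0.47, standard error 0.08, edgeR adjusted p = 0.0172), with 42.5, 43.3 and 39.8 CPM in the controls and 65.6, 59.0 and 46.8 CPM in the *Dot1l*-cKO embryos of litter 1. In litter 2 *Nfix* had 23.2 and 23.2 CPM in controls and 30.6 and 35.7 CPM in *Dot1l*-cKO embryos. Its groups were apart in both litters, as for 3.89% of all genes with the *Dot1l*-cKO higher. The same held for *Mmd2*, *Aqp4*, *S100b* and *Cnp* below, and *Prom1* was lower without overlap in both litters. In all, 8.1% of genes were apart in the same direction in both litters. *Nfix* thus had the opposite sign to *Nfia*. The fourth gene of the family, *Nfic*, had 0.19 (adjusted p = 0.417). *Id1*, an inhibitor of bHLH factors, rose as well (0.84, standard error 0.18, adjusted p = 0.0313), with 12.3 to 14.9 CPM in all controls and 13.5 to 33.0 CPM in *Dot1l*-cKO embryos. Taken by litter, 0 of the 12 passed in litter 1 (median -0.02) and 6 rose in litter 2 fitted alone (median 0.32), where genotype and sex cannot be told apart, and 0 in litter 2 in the interaction fit. These were *Nfix* (0.52), *Nfic* (0.59), *Sox10* (0.79), *Hes5* (0.37), *Id1* (1.07) and *Id3* (0.74), and for none of them did the interaction pass (adjusted p from 0.439 to 0.926).

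Of 3 genes known as joint targets of SOX9 and NFIA 0 passed between the genotypes (1 at an unadjusted p below 0.05, against 22.2% of all genes). *Mmd2* had 0.21 (edgeR adjusted p = 0.0866) and passed within litter 2 (0.37, adjusted p = 0.0469), with DESeq2 (0.21, adjusted p = 0.0435) and without the expression filter (0.22, adjusted p = 0.0286). It did not pass in litter 2 in the interaction fit (0.36, adjusted p = 0.121), with *Xist* as a covariate (0.09, adjusted p = 0.622) or without the litter in the model (0.18, adjusted p = 0.826). *Zcchc24* had -0.09 (adjusted p = 0.375) and *Apcdd1* 0.03 (adjusted p = 0.779). Of 14 other radial glia genes 1 fell, *Prom1* (-0.23, standard error 0.06, adjusted p = 0.0444), which encodes a membrane protein of the apical surface of progenitors, and 13 did not pass (median -0.04). Of 11 genes of astrocyte maturation 2 rose and 0 fell (median 0.37). These were *Aqp4*, the water channel of astrocytes (0.73, adjusted p = 0.0444), with 0.986 to 4.09 CPM in controls and 2.18 to 5.04 CPM in *Dot1l*-cKO embryos, and *S100b*, a calcium binding protein (0.92, adjusted p = 0.0467), with 0.354 to 2.11 CPM and 1.21 to 3.23 CPM. Within litter 1 no gene of this list passed. Within litter 2 fitted alone, where 5.13% of all genes passed, *Aqp4* (1.33), *S100b* (1.66), *Aldoc* (0.67) and *Gjb6* (0.85) rose and *Slc1a2* (-0.26) fell. Of these only *Aqp4* passed in litter 2 in the interaction fit. *Gfap*, the defining filament of mature astrocytes, did not exceed 0.476 CPM in any embryo. The summed level of the 11 genes was 693 to 725 CPM in controls and 677 to 781 CPM in *Dot1l*-cKO embryos of litter 1. In litter 2 it was lower in the *Dot1l*-cKO embryos (587 to 588 CPM) than in controls (619 to 638 CPM).

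Of 11 other oligodendrocyte lineage genes 1 rose, *Cnp* (0.34, standard error 0.08, edgeR adjusted p = 0.0360), an enzyme of myelin, and 10 did not pass (median 0.16), while within litter 2 *Sox10* (0.79) and *Cnp* (0.60) rose and within litter 1 none passed. Of 8 genes of the pMN domain and motor neurons 0 passed (4 at an unadjusted p below 0.05, against 22.2% of all genes, median 0.06). The smallest p in this list belonged to *Isl1* (-0.28, adjusted p = 0.0866) and *Chat* (-0.29, adjusted p = 0.117), genes of motor neurons. *Isl1* passed with DESeq2 (-0.28, adjusted p = 0.0329) and without the expression filter (-0.27, adjusted p = 2.98e-05). With *Xist* as a covariate *Isl1* had -0.48 (adjusted p = 0.0534) and *Chat* -0.15 (adjusted p = 0.638). Of 11 FGF and PDGF ligands and FGF feedback genes 0 passed (3 at an unadjusted p below 0.05, median -0.05), with *Etv5* at -0.18 (adjusted p = 0.120) and *Etv4* at -0.20 (adjusted p = 0.125), both targets of FGF signalling. *Etv4* passed with GC correction (-0.31, adjusted p = 0.0462), and *Etv5* had -0.29 (adjusted p = 0.125) with *Xist* as a covariate.

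These calls on other genes also depended on the fit. In litter 2 fitted alone 31 genes of the pathway and marker lists passed, and in the interaction fit 4 did, among them *Aqp4* (1.33, adjusted p = 0.0463), *Cnp* (0.60, adjusted p = 0.0282) and *Avil* (1.07, adjusted p = 0.0456). In litter 1 these counts were 1 and 3, the latter including *Isl1* (-0.47, adjusted p = 0.0309). Over both litters none of the 6 pathway genes called passed without the litter in the model (adjusted p from 0.318 to 0.670). Their log2 fold changes in that fit were 0.47 for *Nfix*, 0.85 for *Id1*, -0.24 for *Prom1*, 0.61 for *Aqp4*, 0.79 for *S100b* and 0.31 for *Cnp*. *Id1* (0.78, adjusted p = 0.0564), *Aqp4* (0.64, 0.0567) and *S100b* (0.81, 0.0721) lost their calls with limma-voom, and *Id1* with the robust edgeR fit (0.84, 0.0819). *Prom1* lost its call with library sizes alone (-0.21, 0.0519), and *Prom1* (-0.20, 0.0599) and *S100b* (0.93, 0.0525) with GC correction. With *Xist* as a covariate, a fit that rests mainly on litter 1, none of these 6 passed edgeR's test, with 0.44 for *Nfix* (adjusted p = 0.125), 0.68 for *Id1* (0.226), -0.17 for *Prom1* (0.325), 0.35 for *Aqp4* (0.381), 0.50 for *S100b* (0.369) and 0.16 for *Cnp* (0.373). With 1 embryo left out, *Nfix* lost its call without *Dot1l*-cKO embryo 2 of litter 2 (adjusted p = 0.0547), and *Id1* did so in 6 of 10 fits, without control embryo 1 or 3 or *Dot1l*-cKO embryo 1 of litter 1, either control of litter 2 or *Dot1l*-cKO embryo 2 of litter 2. *Prom1* and *S100b* passed in the fits without *Dot1l*-cKO embryo 2 or 3 of litter 1 only, and *Aqp4* and *Cnp* in these and the fit without control embryo 2 of litter 1.

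**Figure D5:**
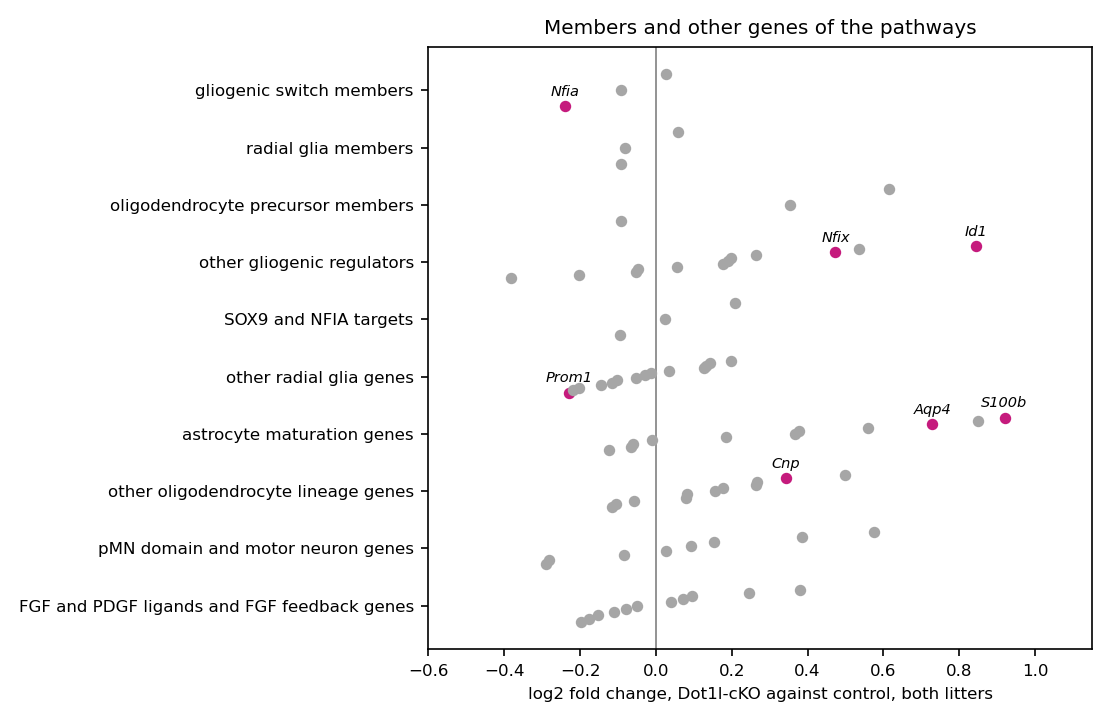
Log2 fold change of Dot1l-cKO against control over both litters (horizontal axis) for the members and the other genes of each pathway, 1 point per gene. Pink points passed the edgeR test and are named, and grey points did not. Nfia at -0.24 is the only pink point among the members, and the pink points to the right include Nfix at 0.47 and Id1 at 0.84.

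Between the litters, where 36.4% of all genes passed, 17.6% higher and 18.7% lower, the lists differed in their counts. Of the 11 astrocyte maturation genes 6 were lower in litter 2 and 0 higher, among them *Aldoc* (-2.12) and *Aldh1l1* (-1.59). Of the 11 other oligodendrocyte lineage genes 7 were lower and 2 higher, with *Bcan*, a proteoglycan of glial precursors, the lowest (-3.22). Of the 14 other radial glia genes 8 were higher and 3 lower, with *Nes* at 0.81 and *Tnc* at -1.38, and of the 8 genes of the pMN domain and motor neurons 5 were higher and 0 lower. Of 11 FGF and PDGF genes 6 were lower, including *Fgf1* (-1.92), and 1 was higher, of the 12 other gliogenic regulators 4 were higher and 3 lower, and of the 3 joint targets *Mmd2* was lower (-0.84).

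Markers of other cells in the tissue also differed. All 8 markers of cycling cells were higher in litter 2 (median log2 difference 1.07), with summed levels of 517 to 871 CPM in litter 1 and 1325 to 1696 CPM in litter 2. Between the genotypes these 8 were all negative (median -0.27), 7 had an unadjusted p below 0.05, against 22.2% of all genes, and 2 fell, *Mki67* (-0.49, edgeR adjusted p = 0.0377) and *Pcna* (-0.19, adjusted p = 0.0483). Neither passed without the litter in the model (*Mki67* -0.43, *Pcna* -0.21, adjusted p up to 0.782). With *Xist* as a covariate neither passed (*Mki67* -0.61, adjusted p = 0.125, *Pcna* -0.15, 0.326), nor with GC correction (-0.47, 0.0510, and -0.17, 0.0708). *Mki67* also lost its call with the robust edgeR fit (-0.49, 0.0922), and *Pcna* with limma-voom (-0.19, 0.0539) and library sizes alone (-0.18, 0.0614). With 1 embryo left out, *Mki67* lost its call without any 1 control of litter 1 or *Dot1l*-cKO embryo 1 of that litter. It also did so without control embryo 1 or *Dot1l*-cKO embryo 2 of litter 2. *Pcna* lost its call in every such fit but that without *Dot1l*-cKO embryo 3 of litter 1. Within litter 1 none of the 8 passed, and in litter 2 fitted alone 4 fell, with 0 in the interaction fit. Of 7 markers of sensory neurons 4 were lower in litter 2 and 0 passed between the genotypes (4 at an unadjusted p below 0.05), with summed levels of 775 to 808 CPM in controls and 554 to 738 CPM in *Dot1l*-cKO embryos of litter 1 and 327 to 347 CPM and 426 to 492 CPM in litter 2. Within litter 1 *Prdm12* fell (-0.74, adjusted p = 0.0387). Within litter 2 fitted alone all 7 were positive and 5 rose (median of the 7 0.58), among them *Avil* (1.08) and *Tlx3* (1.21). The study also uses TLX3 to mark dorsal interneurons of the spinal cord, so this list does not isolate neurons of the ganglia.

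Of 6 markers of Schwann cell precursors 3 were lower in litter 2, with summed levels of 180.6 to 245 CPM in litter 1, and of 114 to 128 CPM in controls and 167 to 179 CPM in *Dot1l*-cKO embryos of litter 2. Between the genotypes 1 of the 6 rose over both litters and 0 passed in litter 1. In litter 2 fitted alone, where 5.13% of all genes passed, all 6 were positive and 4 rose (median 0.58), among them *Sox10* (0.79), and in the interaction fit 1 did. For cartilage, where *Sox9* is also transcribed, 0 of the 4 markers tested passed between the genotypes or between the litters over all embryos (0 and 1 at an unadjusted p below 0.05, against 22.2% and 45.2% of all genes). The fifth, *Matn1*, did not exceed 0.580 CPM in any embryo, and the summed level was 203 to 375 CPM in litter 1 and 257 to 326 CPM in litter 2. Within litter 2 *Col2a1* rose between the genotypes (0.39, edgeR adjusted p = 0.00798). Over both litters 0 of 8 markers of neurons, 0 of 5 of endothelium and 0 of 4 of microglia passed (2, 4 and 0 at an unadjusted p below 0.05, against 22.2% of all genes). Of the 5 endothelial markers 4 were negative over both litters (median -0.24). Their summed levels were 263 to 308 CPM in controls and 214 to 237 CPM in *Dot1l*-cKO embryos of litter 1, and 174 to 219 CPM and 184 to 232 CPM in litter 2. In litter 2 fitted alone *Rbfox3* (0.50) of neurons and *Cldn5* (0.61) of endothelium rose, and neither passed in the interaction fit. Between the litters 3 markers each of neurons and endothelium were lower, and 0 of microglia. The pan-neuronal markers had summed levels of 7017 to 7874 CPM over all embryos. The part of any of these cells in the members' values was not tested.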

How the data were processed

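RNA of 10 embryos was analysed. The authors deposited raw counts per gene, after TrimGalore, STAR alignment to mm10 and featureCounts with GENCODE M18 in the default snakePipes workflow, and the strand setting was not given in the sources used here. Positions came from GENCODE M21 on GRCm38, the same build, and 54079 of 54146 identifiers matched. In R 4.3.3, edgeR 4.0.16 was used with TMM, the default expression filter, and the quasi-likelihood test with litter and genotype. P-values were Benjamini-Hochberg adjusted over all genes tested, with a threshold of 0.05, and "edgeR adjusted p" means this test throughout. The standard error was the size of the log2 fold change divided by the square root of F. DESeq2 1.42.0 and limma 3.58.1 served as alternatives. The study's model, DESeq2 with litter, was among them. Ratios used read counts with a pseudocount of 0.5.

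The test was checked on simulated genotype differences of 0.8 (log2) in 200 of 18543 genes, of which it recovered 69%, with 6.76% of its calls wrong. Each embryo was counted as 1 replicate, since the 20 comparisons of embryos of 1 group gave a chi-square per gene of 9.31 to 85.2, beyond counting noise. The members and gene lists were chosen with earlier results of these data known. Named were all members, up to 4 genes per pathway list that passed between genotypes (otherwise the 2 with the smallest p), and the 3 nearest profiles of the 3 most variable members. A few that this rule gave are left out of the text. Other list genes named were chosen after their values were seen.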

Additional observations from a re-analysis of the deposited data

How the results depend on the processing

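Over both litters 2 members were called without the expression filter and 2 with DESeq2, and 0 without the litter or with GC correction, where the genes called in all were 2201, 1508, 0 and 384, with 46 under *Xist* as a covariate. Without the litter edgeR still gave 1867 genes (9.88%) and 1 member at an unadjusted p below 0.05, and with GC correction 3902 genes (20.7%) and 3 members. Leaving out 1 embryo gave 0 to 2 members and 48 to 1394 genes over both litters. In litter 1 the contrast from the interaction fit called 1 member and 125 genes and DESeq2 1 member and 564 genes, and leaving out 1 embryo gave 0 to 1 members and 1 to 409 genes. In litter 2 the interaction fit called 36 genes, and leaving out 1 embryo gave 0 to 1 members and 384 to 1099 genes. For the interaction DESeq2 called 94 genes and leaving out 1 embryo 1 to 108. The litter difference in *Dot1l*-cKO embryos alone called 3661 genes. The log2 ratio of *Nfib* to *Nfia* was 0.20 without control embryo 1 of litter 1 (exact permutation p = 0.0333) and 0.086 to 0.20 over all such fits. The causes were not tested.

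Some signs turned. *Sox9* between genotypes was -0.044 with *Xist* as a covariate and -0.060 to 0.11 with 1 embryo left out. With 1 embryo left out in litter 1, *Sox9* ranged from -0.20 to 0.11, *Fabp7* from -0.10 to 0.031 and *Fgfr3* from -0.071 to 0.021, and in litter 2 *Nfib* from -0.0019 to 0.081 and *Slc1a3* from -0.074 to 0.0026. The interaction ranged from -0.012 to 0.59 for *Olig1*, -0.26 to 0.14 for *Olig2* and -0.0039 to 0.30 for *Sox9*. The litter difference turned in controls alone for *Id1* (-0.032), in *Dot1l*-cKO embryos alone for *Nfia* (0.016), *Pdgfra* (0.018), *Zcchc24* (0.073) and *Isl1* (0.15), and with 1 embryo left out for *Isl1* (-0.16 to 0.0029) and *Zcchc24* (-0.072 to 0.028). The filter on the full design and the interaction fit for other listed genes, and all alternatives for markers of other cells, were chosen after seeing the data. No replicate numbers pair embryos across genotypes, so no paired analysis was possible because the labels number embryos within litters only. Where a fit left 1 embryo in a group, that embryo was assumed to vary like the others. Read counts of the members were lowest for *Olig1* in litter 2, with 50 to 155 reads per embryo, and litter 2 had 2 embryos per genotype.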
